A study of Mus musculus with 16 samples.

Results

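Chemokine ligands are small secreted proteins that guide leukocytes along concentration gradients. They act on G protein-coupled receptors, and they are grouped by the spacing of conserved cysteines near the start of the mature protein into CC, CXC, C and CX3C types. In spleen, homeostatic ligands place lymphocytes and dendritic cells in their zones, while inflammatory ligands draw neutrophils and monocytes.

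The genes described here were all symbols of the deposited gene annotation made of the stem Ccl, Cxcl, Xcl or Cx3cl, a number and an optional letter, with at least 1 coding segment. The rule found 39 genes of 20508 coding gene symbols: 24 CCL genes, 13 CXCL genes, Xcl1 and Cx3cl1. The remaining 20469 coding symbols served as the background. Pf4 and Ppbp encode CXC chemokines as well, but their names fall outside the rule.

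The annotation belongs to an RNA sequencing study of untreated mouse spleens, 16 in number and 4 per group. A triple knockout (Zfp36-/-, TNFR1-/-, TNFR2-/-) and a double knockout (TNFR1-/-, TNFR2-/-) were set against wild types that the labels assign to the studies NG66 and NG108. The labels gave both knockouts the code NG66, and NG108 stood on wild types only. Zfp36 encodes tristetraprolin (TTP), which binds AU-rich elements of mRNA and promotes decay, and TNFR1 and TNFR2 are the receptors of tumour necrosis factor. Both knockouts lacked both receptors, no group lacked Zfp36 alone, and the labels used here gave no strain, age or sex. The file used here held gene models for mm10 and 0 columns of sample values, so the level of these genes in any genotype was not analysed here. Genes are therefore the units below, there is no replicate error, and no test was run.

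The cysteine spacing was visible in the coding sequence of nearly every gene, and the stretches below show it for each type. Each is coding sequence, 5′ to 3′ on the gene's strand, taken from reference transcripts of the same assembly, and capitals mark the cysteine codons of the first pair. Ccl2 and Ccl5 attract monocytes and T cells, Ccl21a guides cells bearing Ccr7, Cxcl1 attracts neutrophils, Cxcl10 is an interferon-induced ligand of Cxcr3, Cxcl12 is the ligand of Cxcr4, and Cx3cl1 (fractalkine) is anchored in the membrane.
Ccl2, chr11:82036497-82036520, plus strand: ccactcaccTGCTGCtactcattc
Ccl5, chr11:83529233-83529256, minus strand: accactcccTGCTGCtttgcctac
Ccl21a, chr4:42773726-42773749, minus strand: ggtcaggacTGCTGCcttaagtac
Cxcl1, chr5:90891487-90891513, plus strand: gagctgcgcTGTcagTGCctgcagacc
Cxcl10, chr5:92348172-92348198, minus strand: acggtccgcTGCaacTGCatccatatc
Cxcl12, chr6:117171499-117171525, plus strand: agctaccgaTGCcccTGCcggttcttc
Cx3cl1, chr8:94778045-94778071, plus strand: acgaaaTGCgaaatcatgTGCgacaag

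Cysteine codons at most 4 codons apart were searched from codon 18 on in the longest coding sequence of each gene. A pair was found in 37 of 39 genes. In 24 of 24 CCL genes the codons were adjacent, in 12 of the 12 CXCL genes with a pair 1 codon lay between them, and in Cx3cl1 3 codons lay between them. The symbols and the coding sequences gave the same type for all 37. Since the symbols carry the name of the cysteine type, this agreement is no independent result. The pair lay in coding exon 2 in 32 genes, where it began a median of 23 nt after the exon's first base (range 8 to 68). The low end was Cxcl14 and the high end Cxcl17. Later in the sequence, 25 of the 37 genes had a further pair of cysteine codons exactly 16 codons apart, and 32 had one 14 to 17 codons apart. The 5 genes without such a spacing were Ccl21a, Ccl21b, Ccl21c, Cxcl14 and Cxcl17. These 5 were counted after their positions were seen.

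Of the 5 genes with the pair in another exon, Ccl6 and Ccl9 had it in coding exon 3, Ccl27b in coding exon 3 and Ccl27a in coding exon 4. For Ccl27a and Ccl27b this depends on the transcript. In their transcripts of 360 nt the exon with this pair is coding exon 2. Ccl24, an eotaxin, had adjacent cysteine codons at positions 19 and 20 in coding exon 1 and again at 33 and 34 in coding exon 2. The search took the earlier pair, which lies where secreted proteins carry their leader. The later pair is shown here.
Ccl24, chr5:135572656-135572679, minus strand: ccctcatctTGCTGCacgtccttt

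Xcl1 and Cxcl11 had no pair. Xcl1 (lymphotactin), the ligand of Xcr1, is known for a single conserved cysteine before the chemokine fold and a single one within it. After codon 18 its coding sequence had cysteine codons only at positions 32 and 69, each shown in capitals below.
Xcl1 codon 32, chr1:164932966-164932986, minus strand: gagagtagcTGTgtgaactta
Xcl1 codon 69, chr1:164931914-164931934, minus strand: ctaaaaattTGTgctgatcca

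Cxcl11, an interferon-induced ligand of Cxcr3, had a coding sequence of 299 nt, which is not a multiple of 3. It was the only such gene of the 39 (2.56%), against 81 of 20469 other coding genes (0.396%). Its first coding exon held 60 nt, where those of its neighbours Cxcl9 and Cxcl10 held 61 each. Read from the start codon, coding exon 1 had 0 stop codons and the whole coding sequence had 7, the first at codon 37. Read from the third base of coding exon 2, the remaining 237 bases had 0 stop codons and held a cysteine pair with 1 codon between, as in the other CXCL genes. The file also listed a non-coding record for Cxcl11 with the same number of exons. The first stretch shows the stop codon met in the annotated frame and the second the cysteine codons met in the other frame, both in capitals.
Cxcl11 stop at codon 37, chr5:92361284-92361286 for the capitals, minus strand: tcggccccgggaTGAaagccgtcaaaa
Cxcl11 cysteine codons, exon 2, minus strand: caggggcgcTGTcttTGCatcggcccc

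The genes were compact. The median coding length, without the stop codon, was 327 nt (range 273 to 1185), against 1218 nt for other coding genes. Coding sequences of up to 400 nt were found in 32 of 39 genes (82.1%), against 5.91% of the background. The median gene span was 3147 bp against 16505 bp, and the median exon number 4 against 7. When only other genes with a coding length inside the chemokine range were taken (9635 genes), their median was 825 nt, 4 exons and 7265 bp. The median exon number was thus equal, while the coding length and span of the chemokine ligand genes remained lower.

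Exon number was far less spread than in other genes. All 39 genes had 3, 4 or 5 coding exons: 16 had 3, 20 had 4, and Ccl25, Ccl27a and Cxcl16 had 5. Together, 3 or 4 coding exons were found in 92.3% of the genes against 14.6% of other coding genes. No chemokine ligand gene had 1 coding exon, against 15.1% of the background. Of the 9635 other genes in the chemokine range of coding length, 2023 had 3 or 4 coding exons and 25.9% had 1. CCL genes mostly had 3 (14 of 24) and CXCL genes 4 (12 of 13). The plot of coding length and exon number shows both distributions.

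**Figure D1:**
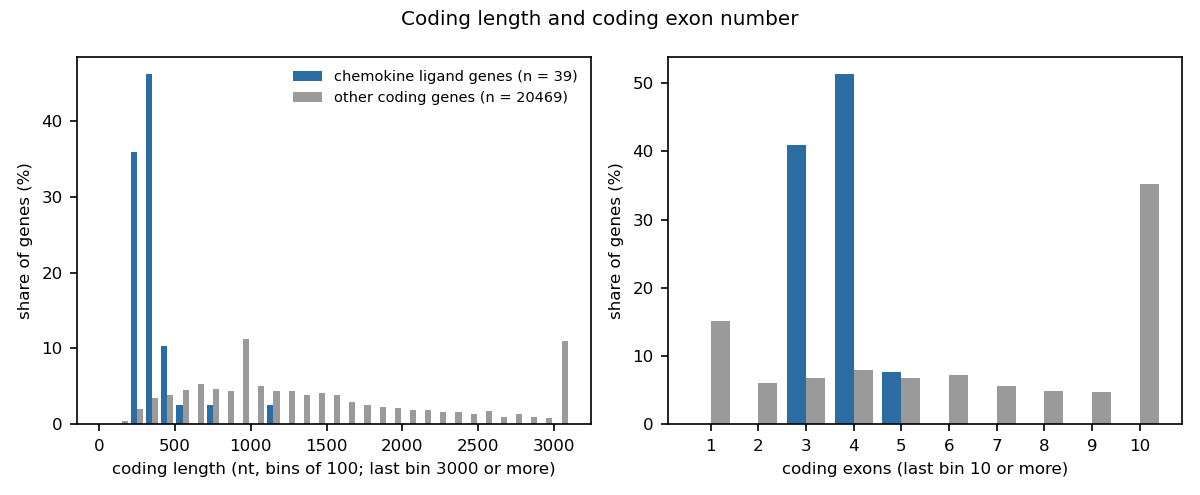
Share of genes (%, vertical axes) by coding length in nt (left) and by number of coding exons (right), for the 39 chemokine ligand genes (blue) and the 20469 other coding genes (grey). The blue bars sit between 200 and 500 nt for 36 genes and at 3 and 4 coding exons for 36 genes.

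The shortest coding sequences belonged to Ccl5 (273 nt) and to Ccl1, Ccl3, Ccl4 and Ccl22 (276 nt each). Ccl3, Ccl4 and Ccl5 are inflammatory ligands made by macrophages and lymphocytes, and Ccl22 is a ligand of Ccr4. The longest belonged to the ligands anchored in the membrane, Cx3cl1 with 1185 nt and Cxcl16 with 738 nt, followed by Cxcl15, a lung chemokine that attracts neutrophils, with 501 nt. In Cx3cl1 the added length lay in coding exon 3 (994 nt, against a median of 98.5 nt in CCL genes of 3 coding exons), and in Cxcl16 in coding exon 4 (408 nt). In Cxcl15 it lay in coding exon 4 (229 nt). Ccl2 reached 444 nt through a last coding exon of 250 nt, where its neighbours Ccl7, Ccl8 and Ccl11 had 103 nt each and Ccl12 had 121 nt. In these 4 genes the added length lay mainly after coding exon 2. Ccl27a (492 nt) differed, since its last coding exons of 133 and 154 nt were also those of its transcript of 360 nt and the coding exons before them were not.

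The first exons were similar in length in most genes. Over all 39 genes the first coding exon had a median of 73 nt (20 to 118). In the 14 CCL genes of 3 coding exons, exon 1 held a median of 76 nt (64 to 100) and exon 2 a median of 115 nt (112 to 127). In the 12 CXCL genes of 4 coding exons, exon 1 held 62.5 nt (58 to 118), exon 2 125.5 nt (81 to 136), exon 3 84 nt (73 to 114) and exon 4 45.5 nt (13 to 229). A first coding exon of up to 79 nt was present in 37 of 39 genes (94.9%) against 31.6% of other coding genes. The bound of 79 nt is the longest first coding exon among the 37. It thus follows the lengths of these genes, which raises their share. Cxcl5 (118 nt) and Ccl17 (100 nt) were the exceptions.

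**Figure D2:**
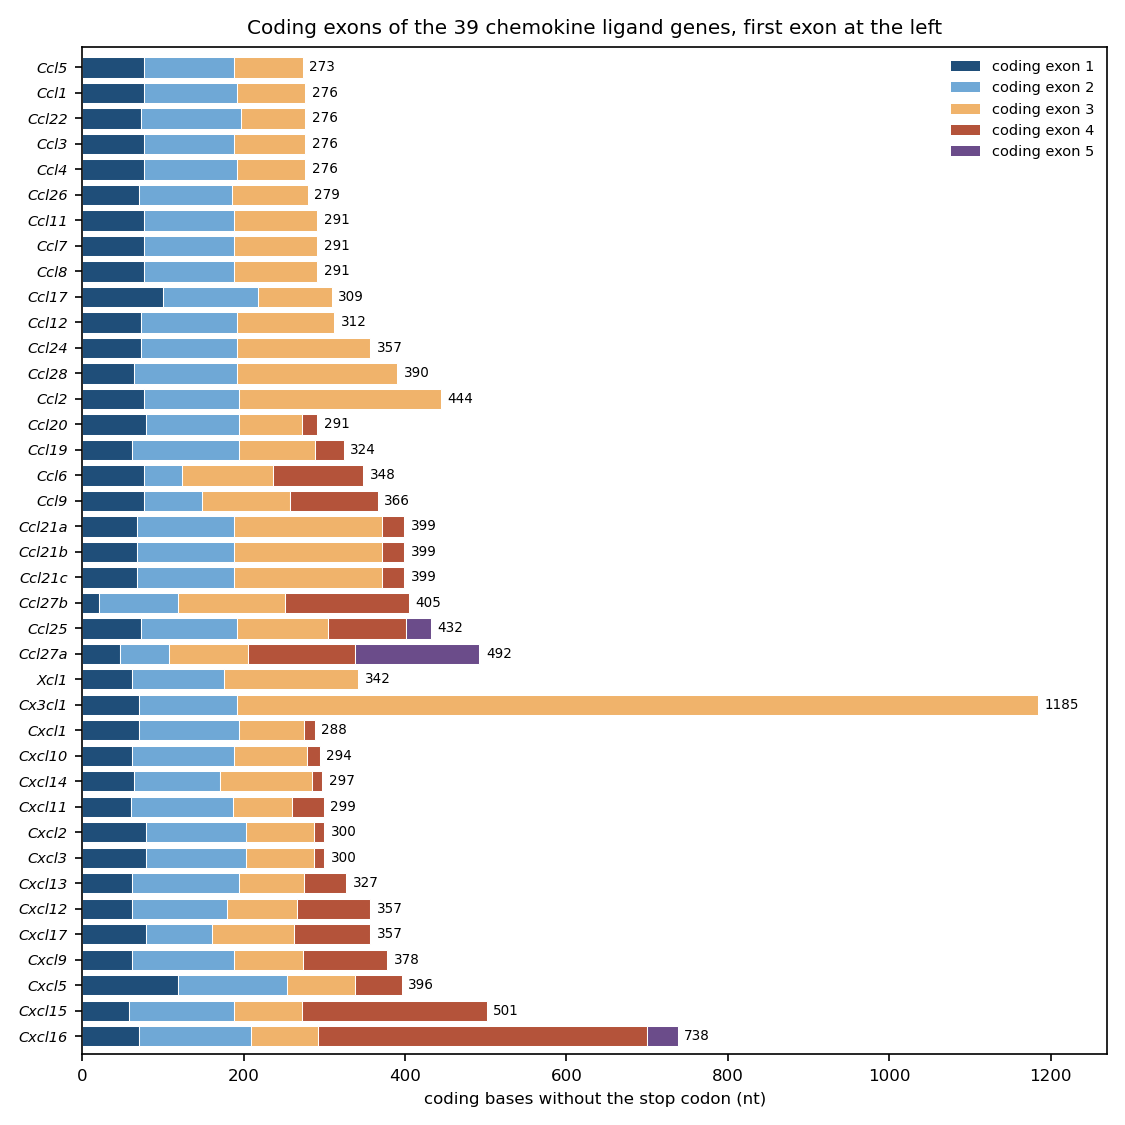
Coding exon lengths in nt (horizontal axis) of the longest coding sequence of each of the 39 genes, stacked from the first coding exon at the left, with the total beside each bar. Coding exons 1 and 2 are alike across most genes, and Cx3cl1 (1185 nt) and Cxcl16 (738 nt) stand out through 1 long later exon each.

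The positions at which introns cut the reading frame were shared by most genes as well. An intron of phase 1 follows the first base of a codon and one of phase 2 the second base. The first coding intron was in phase 1 and the next in phase 2 in 33 of 39 genes (84.6%), against 1470 of 16160 other genes with at least 2 coding introns (9.1%). The whole pattern was 1-2 in 16 genes and 1-2-2 in 13 genes, so that 29 genes (74.4%) had one or the other, against 0.616% of other coding genes. Only genes of 3 or 4 coding exons can have these patterns, and among those the counts were 29 of 36 (80.6%) and 126 of 2990 (4.21%). Pattern 1-2 was found in 14 CCL genes, Xcl1 and Cx3cl1. Pattern 1-2-2 was found in 9 CXCL genes and in Ccl20, Ccl21a, Ccl21b and Ccl21c. A structure of 4 coding exons with these phases was therefore not limited to the CXC type.

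The 6 genes without phase 1 followed by phase 2 were Ccl6, Ccl9, Ccl27a, Ccl27b, Cxcl11 and Cxcl17. Ccl6 and Ccl9, neighbours in the macrophage inflammatory group, both had the pattern 1-1-2, with an additional coding exon of 48 nt in Ccl6 and 72 nt in Ccl9 after an exon 1 of 76 nt. Both lengths are multiples of 3. Without that exon their lengths would be 76, 112 and 112 nt and 76, 109 and 109 nt. Ccl27a and Ccl27b, skin-associated ligands of Ccr10, had other first exons in their longest coding sequences, but each also had a transcript of 3 coding exons of 73, 133 and 154 nt. Cxcl17 had the pattern 1-1-1, the only one of its kind among the 39. In Cxcl11 the pattern 0-1-2 went with the frame described above.

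On the chromosomes, the genes were concentrated. They lay on 8 chromosomes, with 12 genes on chromosome 11, 11 on chromosome 5, 6 on chromosome 4, 4 on chromosome 8, 2 each on chromosomes 1 and 13 and 1 each on chromosomes 6 and 7. Chromosomes 4, 5 and 11, grouped after their counts were seen, held 74.4% of the genes and 19.4% of all coding genes. Neighbouring positions with at most 100 kb between gene bodies were joined into clusters. This gave 8 clusters with 29 of the 39 genes (74.4%): 20 of 24 CCL genes, 8 of 13 CXCL genes and Cx3cl1. No cluster held both CCL and CXCL genes. With Gm and Rik symbols left out, the neighbouring coding gene had the same symbol stem for 25 of 39 chemokine ligand genes (64.1%) and 3923 of 18738 other coding genes (20.9%), a measure that also depends on how genes were named.

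**Figure D3:**
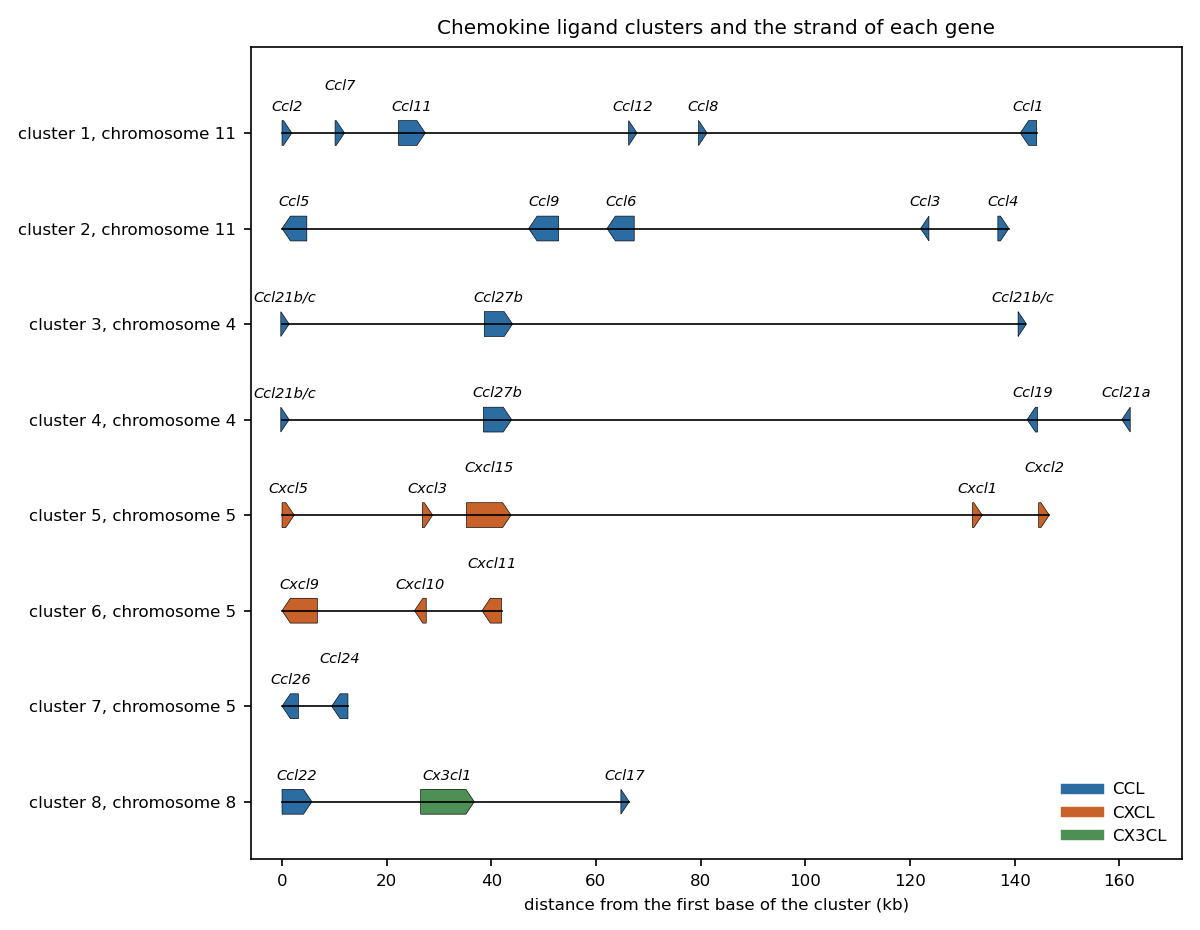
Maps of the 8 clusters, with distance in kb from each cluster's first base on the horizontal axis and arrows for the strand of each gene (blue CCL, orange CXCL, green CX3CL; genes under 1.6 kb drawn at 1.6 kb). Clusters 5 and 6 hold only CXCL genes on 1 strand each, and the last gene of clusters 1 and 2 points against its neighbours.

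The first cluster of chromosome 11 held the monocyte chemoattractant and eotaxin group. From 82035577 to 82179812 (144236 bp) the order was Ccl2, Ccl7, Ccl11, Ccl12 and Ccl8 on the plus strand and then Ccl1 on the minus strand. Gaps were 8259 bp from Ccl2 to Ccl7, 10308 bp to Ccl11, 38889 bp to Ccl12, 11785 bp to Ccl8 and 59866 bp to Ccl1. No other coding gene lay within it. All 6 genes had 3 coding exons, with coding lengths of 276 to 444 nt. Accn1 was the next coding gene before it (67180 bp) and Tmem132e after it (209087 bp).

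The macrophage inflammatory group lay 1345966 bp further on. From 83525779 to 83664683 the order was Ccl5, Ccl9, Ccl6 and Ccl3 on the minus strand and Ccl4 on the plus strand. The gaps were 42398, 9249, 54755 and 13205 bp in that order. Ccl3 and Ccl4, which encode the ligands MIP-1 alpha and MIP-1 beta, were the only pair of neighbours in any cluster that pointed away from each other. Ccl6 lay within E230016K23Rik, a non-coding gene of the opposite strand, with 0 shared exonic bases. Their coding lengths ran from 273 to 366 nt, with 3 coding exons in Ccl3, Ccl4 and Ccl5 and 4 in Ccl6 and Ccl9.

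Chromosome 5 held the neutrophil-attracting CXC genes. From 90759299 to 90905938 the order was Cxcl5, Cxcl3, Cxcl15, Cxcl1 and Cxcl2, all on the plus strand, with gaps of 24477, 6443, 88177 and 10783 bp. Between Cxcl5 and Cxcl3 lay Ppbp and Pf4, platelet CXC chemokine genes of the same strand. These had 3 coding exons and phases 1-2, with 339 nt in Ppbp and 315 nt in Pf4, while all 5 genes of the cluster had 4 coding exons. With Ppbp and Pf4 counted, no gene of another kind lay inside the cluster. Rassf6 preceded it by 118811 bp and Mthfd2l followed at 25257 bp.

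The Cxcr3 ligands formed the next cluster, 1415392 bp away. Cxcl9, Cxcl10 and Cxcl11 lay on the minus strand from 92321331 to 92363296, with gaps of 18559 and 10655 bp. Cxcl10 and Cxcl11 lay inside Art3, a gene of the plus strand that runs from 92331841 to 92414627, and shared 0 exonic bases with it. Each of the 3 had 4 coding exons. Further along the chromosome Ccl26 and Ccl24, eotaxins that act on Ccr3, lay 6367 bp apart on the minus strand from 135560448 to 135573043. That gap was the shortest between neighbouring genes in any cluster.

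On chromosome 8, Ccl22, Cx3cl1 and Ccl17 lay on the plus strand from 94745684 to 94812036, with gaps of 20791 and 28026 bp and no other coding gene between them. Ccl17 and Ccl22 are both ligands of Ccr4, and Cx3cl1 stood between them. It was the only cluster with more than 1 cysteine type. All 3 genes had 3 coding exons with phases 1-2.

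Neighbours in a cluster mostly pointed the same way. Of 23 neighbouring pairs, 20 were on the same strand (87.0%), 1 was divergent and 2 were convergent (Ccl8 with Ccl1, and Ccl27b with Ccl19). Of 16466 neighbouring pairs of other coding genes, 53.7% were on the same strand, 23.3% divergent and 23.0% convergent. Among the 18 pairs with no other coding gene between, 16 were on the same strand (88.9%). Gaps ran from 6367 to 98519 bp with a median of 20791 bp. The nearest coding gene of any kind was a median of 8259 bp away, against 6491 bp for other coding genes. The chemokine ligand genes were therefore not packed more densely than coding genes at large by this measure.

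Genes outside clusters were Xcl1 and Ccl20 on chromosome 1, Cxcl14 and Ccl28 on chromosome 13, Cxcl12, Cxcl17, Cxcl13, Ccl25, Cxcl16 and Ccl27a. Of these 10, 6 were on the list of homeostatic ligands: Cxcl12, Cxcl14, Ccl27a, Cxcl13, which guides B cells to follicles, Ccl25, which acts in thymus and gut, and Ccl28 of mucosal tissue. The other 5 of the 11 genes on that list (Ccl19, Ccl21a, Ccl21b, Ccl21c and Ccl27b) lay in clusters. Ccl27a lay 129436 bp from the nearest Ccl21b/c position, so a maximum gap of 250 kb placed it in a cluster as well. Cxcl12 had the longest distance to another coding gene, 451776 bp. Ccl28 spanned 30540 bp, of which its first intron measured 21932 bp. The Ccl25 locus measured 34811 bp with a non-coding record that starts upstream at 4325210, while its coding transcript covered 10433 bp, from 4349588 to 4360020. Cxcl13 lay on chromosome 5, but 3593642 bp past Cxcl11. Cxcl16 shared 363 of its 2448 exonic bases with Zmynd15 on the opposite strand, and Ccl27a shared 4 with Il11ra1.

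The homeostatic CCL genes of chromosome 4 were annotated in repeats. Ccl19 and the Ccl21 genes encode ligands of Ccr7, which bring T cells and dendritic cells into the T zone of spleen and lymph node. Ccl21b and Ccl21c were each listed at 4 positions of the chromosome and 3 on scaffolds. The scaffold names assign them to chromosome 4 without a place on it. At every one of these positions all exonic bases of Ccl21b lay within those of Ccl21c. Ccl27b had 2 positions on the chromosome and 2 on scaffolds, and Ccl19 and Ccl21a had 1 on each. More than 1 coding locus was thus found for 5 of 39 genes (12.8%), against 1.26% of other coding genes. From Ccl21b/c to Ccl27b the distance was 37527 bp at the first copy and 37350 bp at the other. Ccl19 and Ccl21a closed the region on the minus strand, 16341 bp apart.

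**Figure D4:**
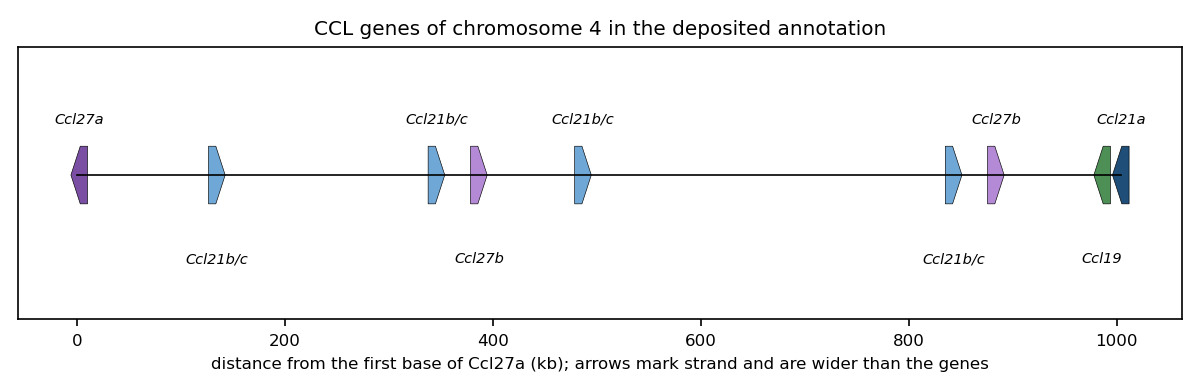
CCL genes of chromosome 4, with distance in kb from the first base of Ccl27a on the horizontal axis and arrows for the strand (arrows are wider than the genes). Ccl21b and Ccl21c share each of 4 positions, Ccl27b has 2, and Ccl27a, Ccl19 and Ccl21a have 1 each.

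The copies were close to identical in coding sequence. All 4 placed copies of Ccl21b and all 4 of Ccl21c had the same 399 coding bases, and these differed from Ccl21a by T84A and C194T, with positions counted from the A of the start codon and the base of Ccl21a first. The change at position 84 left the codon for glycine in place, and that at position 194 turned codon 65 from TCA into TTA, a serine and a leucine codon. These are the forms known as CCL21-Ser and CCL21-Leu. The stretches below carry the differing base in capitals.
Ccl21a position 84, chr4:42773747 for the capital, minus strand: tgatggagggggTcaggactgctgc
Ccl21b position 84, chr4:41903856 for the capital, plus strand: tgatggagggggAcaggactgctgc
Ccl21a position 194, chr4:42773543 for the capital, minus strand: caatcctgttctCaccccggaagca
Ccl21b position 194, chr4:41904060 for the capital, plus strand: caatcctgttctTaccccggaagca

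Ccl27a and Ccl27b differed at 3 of 360 bases in their transcripts of 3 coding exons, C177T, G297A and A343C, with the base of Ccl27a first. Both placed copies of Ccl27b gave these same 3 differences. Further symbols sat on the same exons. Gm10591 and Gm13304 covered all exonic bases of Ccl21b and Ccl21c, Gm13306 and Gm2506 those of Ccl27b, and Gm1987 those of Ccl21a. Ccl27b also shared 401 of 1044 exonic bases with Il11ra2 and Gm2002 on the opposite strand. The remaining 33 of 39 genes shared 0 exonic bases with another gene. All 867 exonic bases of Ccl21c were shared with Gm10591 and Gm13304, and 831 of them with Ccl21b. Reads over shared bases cannot be told apart by position. The same holds for Ccl21a with Gm1987, and for Ccl27b with Gm13306 and Gm2506, and any value assigned to these genes is uncertain.

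Pairs of high identity lay mostly within clusters. Over all 741 pairs of the 39 genes, aligned end to end, the median identity was 50.6%. Only 17 pairs exceeded 60%, all within 1 cysteine type, and 16 of these lay in a shared cluster. The pairs among Ccl21a, Ccl21b and Ccl21c are part of both counts. Ccl21b and Ccl21c were read from the same bases, so their identity of 100% was fixed in advance. Ccl21a with either of them (99.5%) is the same comparison. Cxcl2 and Cxcl3 shared 89.7%, Cxcl1 and Cxcl2 76.0%, and Cxcl1 and Cxcl3 72.7%. Ccl3 and Ccl4 shared 69.8%, Ccl7 and Ccl11 67.9%, and Ccl6 and Ccl9 66.7%. The exception was Ccl27a with Ccl27b (81.7% over their longest coding sequences), which lay on the same chromosome outside a common cluster. At a maximum gap of 250 kb these genes share a cluster. Cxcl10 with Cxcl11 (57.9%) and Ccl17 with Ccl3 (55.8%) lay below 60% but above the upper quartile of all pairs (52.7%). The closest gene was of the same type for 30 of 39 genes and lay in the same cluster for 17 of the 29 clustered genes. Those 17 include Ccl21a, Ccl21b and Ccl21c. For neither count was a background share computed. Ccl2, for example, was closest to Ccl25 (54.1%), and Cxcl5 to Ccl28 (54.6%). Gaps counted in the alignment length, so a difference in coding length lowers the identity. Ccl2 has 444 nt and Ccl25 432 nt, while its cluster neighbours Ccl7, Ccl8 and Ccl11 have 291 nt each. Cxcl5 has 396 nt and Ccl28 390 nt. The closest gene by this measure thus depends partly on length and does not by itself show relatedness.

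Most genes had 1 transcript (33 of 39, 84.6%, against 81.6% of other coding genes). The 6 others were Ccl20, Ccl25, Ccl27a, Ccl27b, Cxcl11 and Cxcl12, and in Ccl25 and Cxcl11 the second record was non-coding. Cxcl12 had 3 coding sequences of 267, 279 and 357 nt that shared the first exons and differed at the end. That of 279 nt continued into coding exon 4 with 13 nt and that of 357 nt into one with 91 nt. The last 24 coding bases of each are shown.
Cxcl12, 267 nt: tacctggagaaagctttaaacaag
Cxcl12, 279 nt: gctttaaacaagaggctcaagatg
Cxcl12, 357 nt: aaggctgcccagaaaaggaaaaac

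Ccl20, the ligand of Ccr6, had 2 coding sequences of 291 and 288 nt whose second coding exons began 3 bases apart. The junction of coding exons 1 and 2 is shown, with the start of exon 2 in capitals.
Ccl20, 291 nt: gccaggcagaagCAGCAAGCAACT
Ccl20, 288 nt: gccaggcagaagCAAGCAACTACG

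Because the study concerned TTP, the 3′ UTRs were read for TATTTAT, the 7-base core of the TTP site, on the mRNA strand and with overlapping copies counted. The longest fully covered 3′ UTR was searched in 34 genes, and 9 of them held at least 1 copy (26.5%), against 22.4% of 15812 other coding genes. As a group the chemokine ligand genes were thus near the background, although their searched 3′ UTRs were shorter (median 477.5 nt against 702 nt). Among genes with 3′ UTRs between the quartiles of the chemokine lengths, 279 to 918.8 nt, the shares were 5 of 16 (31.2%) and 13.8%. With so few genes, 1 gene more or less moves these shares by several points.

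Copies were unevenly spread. Cxcl2 had 7 and Cxcl1 had 6, a number reached by 0.164% of other coding genes. Their neighbour Cxcl3 had 2. Ccl4, Ccl12, Ccl20, Ccl22, Cx3cl1 and Xcl1 had 1 each. In Ccl3 (409 of 410 bases covered) and Cxcl5 (1111 of 1112), which were left out of the share, 1 copy each was found. The nonamer TTATTTATT was present in Cxcl1, Cxcl2, Cxcl3 and Cx3cl1 (4 of 34, 11.8%, against 5.48%). No match was found in the covered 3′ UTRs of Ccl2, Ccl5, Ccl7, Ccl8, Ccl11 or Cxcl10, among others, and Ccl26 was annotated without a 3′ UTR.

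In Cxcl1 and Cxcl2 most copies stood in tandem near the stop codon. In Cxcl1, 4 copies filled bases 87 to 109 after the stop codon, and single copies began at 236 and 396. In Cxcl2, 2 overlapping copies filled bases 123 to 133 and 3 filled bases 139 to 153, with single copies at 333 and 687. The stretches are shown because they hold the densest matches of the family, with the heptamers in capitals. The single sites of Cxcl3 and of Ccl4, for comparison, stood alone.
Cxcl1, chr5:90892610-90892632 for the capitals, plus strand: tccTATTTATTTATgTATTTATTTATtcc
Cxcl2, chr5:90905343-90905357 for the 15 bases of 3 copies, plus strand: TctatgTATTTATTTATTTATtaattc
Cxcl3, chr5:90788043-90788049, plus strand: tttaaaTATTTATtggtat
Ccl4, chr11:83664553-83664559, plus strand: ttctatTATTTATgtttta

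**Figure D5:**
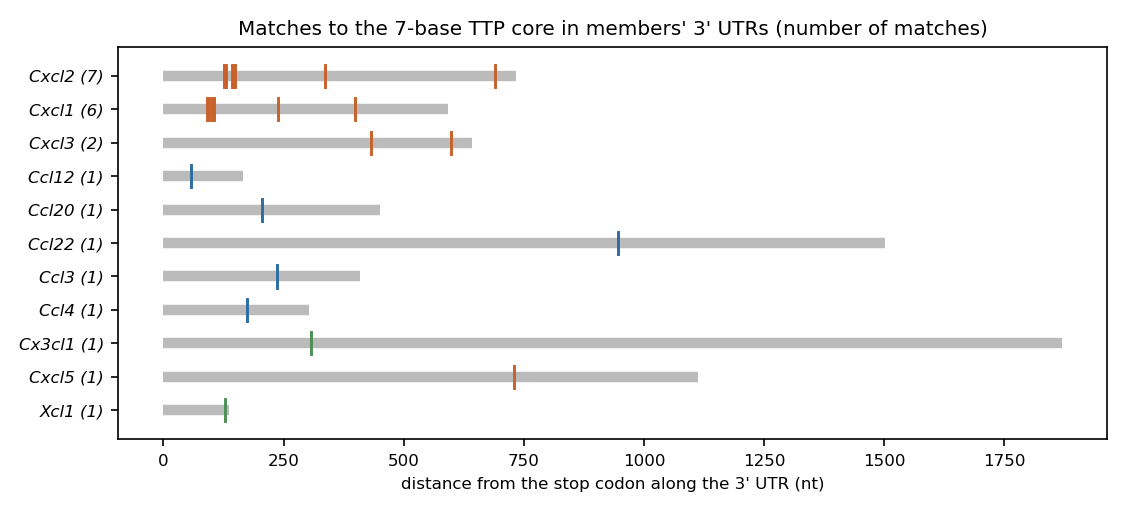
Distance from the stop codon in nt (horizontal axis) of each TATTTAT match (vertical ticks; blue CCL, orange CXCL, green XCL and CX3CL) along the 3′ UTR (grey bar), with the number of matches after each name. Cxcl2 (7) and Cxcl1 (6) hold their matches mostly within the first 153 nt, and 8 of the other 9 genes shown have 1.

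Promoters were taken from RefSeq (GRCm38.p6, the assembly of mm10) from 250 bases before to 50 after the start. Matches were made by symbol for 27 of 39 genes. Unmatched were Ccl2, Ccl4, Ccl5, Ccl7, Ccl11, Ccl21c, Ccl24, Ccl26, Cxcl5, Cxcl11, Cxcl16 and Cxcl17. The start used for Ccl21b lay 58297 bp from the nearest deposited start of that symbol. On both strands, the kappa-B consensus, the binding motif of the inflammatory factor NF-kappa-B, was matched in 8 of 27 genes (29.6%), against 2581 of 27025 symbols (9.55%). These are all symbols with a RefSeq promoter, the chemokine ligand genes included, and not the 20469 other coding genes used above. The 8 were Ccl1, Ccl9, Ccl20, Ccl27a, Cxcl1, Cxcl2, Cxcl3 and Cxcl10. The match of Ccl27a lay 30 to 39 bases after the start, inside the coding sequence of its transcript of 360 nt. The other promoters of Ccl27a had no match. Counted per promoter, since some genes have several, the shares were 24.2% and 8.46%. TATAAA was matched in 10 of 27 genes (37.0%) against 15.7% of symbols. On the coding strand 20 to 40 bases before the start it was matched in Ccl8, Ccl12, Cxcl3 and Cxcl15 (14.8% against 2.41%).

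The neutrophil-attracting genes Cxcl1, Cxcl2 and Cxcl3 had their matches at similar distances, with the first base 71, 97 and 73 bases before the start. The same 10 bases were matched in all 3, and they matched on the other strand as well when shifted by 1 base. Cxcl10 had matches beginning 159 and 104 bases before the start, and Ccl20 one on the opposite strand beginning 80 bases before it. Capitals mark the match. A match describes letters and shows no binding.
Cxcl1, chr5:90891164-90891193, plus strand: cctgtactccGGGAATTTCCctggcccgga
Cxcl2, chr5:90903792-90903821, plus strand: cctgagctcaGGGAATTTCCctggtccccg
Cxcl3, chr5:90786018-90786047, plus strand: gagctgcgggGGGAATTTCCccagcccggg
Cxcl10, chr5:92349029-92349058, minus strand: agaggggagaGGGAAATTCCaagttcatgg
Ccl20, chr1:83116676-83116705, plus strand: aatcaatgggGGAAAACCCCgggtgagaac

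The receptors that read these ligands were built and placed differently. The list of 28 receptor symbols held older names beside current ones, so a symbol not found is not a missing receptor. Of the 28 symbols, 23 were found. Of these, 14 had 1 coding exon and 8 had 2, and Ccr7, named after its value was seen, had 3. Chromosome 9 held 14 of them and none of the 39 ligand genes. A further 5 lay on chromosome 1, 2 on chromosome 11 and 1 each on chromosomes 17 and X.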

How the data were processed

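The series sequenced RNA of mouse spleen (16 samples, 4 per group). The authors' deposited file holds gene models, whose values are other than expression: first base, last base and reading frame of each feature, 1-based on mm10. TopHat2 2.0.4 and mm10 are named per the submitters' processing notes. The release of the annotation is not given in the sources used here. Depth per sample is unknown, and the planned genotype comparisons were not run because the file holds 0 columns of sample values.

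Overlapping transcripts of 1 symbol on 1 strand formed a locus, and overlapping loci formed a position. Each gene was described by its longest coding sequence, without the stop codon. Positions at most 100 kb apart formed a cluster. Intron phase came from the frame field. Identity came from global alignment (Biopython 1.88), as matching bases over the alignment length with gaps included. Bases came from GENCODE M21 transcripts on the same assembly, placed by exon coordinates (141767 transcripts, 0 conflicting bases). The plan had asked for RefSeq proteins to read the cysteines, and coding codons were used instead. The functions were tested on a simulated annotation. Python 3.11.15, numpy 2.4.6 and matplotlib 3.10.9 were used.

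The members and lists were chosen with earlier results of these data known. All 39 genes could be named. Apart from Ccr7, other genes were given values only inside or beside a cluster, on shared exons, or as Pf4 and Ppbp. Ccr7, on the receptor list, was named after its value was seen.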

Additional observations from a re-analysis of the deposited data

How the results depend on the processing

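No paired analysis was possible because no result comes from sample values. Of 24 alternatives over 12 results, 18 left the value within 1.5 times (counts), within the exact 95% interval of a share, or equal (medians), and 6 moved it. The median coding length was 312 nt with the shortest coding sequence of each gene, and the median span 2098.5 bp with all loci counted separately. Other coding genes inside the chemokine range of coding length had medians of 825 nt, 4 exons and 7265 bp. The nonamer lowered the share with the TTP core to 11.8%. Clusters numbered 11 at a maximum gap of 50 kb, 8 at 250 kb, 7 at 1 Mb and 10 where at most 1 other coding gene lay between, with 28 to 30 genes in them. The share of neighbours on the same strand ran from 84.0% (250 kb) to 94.4% (50 kb). It was 88.9% without chromosome 4, an alternative chosen after seeing the data, as was the search of partly covered 3′ UTRs (28.9% with the TTP core). The precision is limited by the number of genes and by the annotation, not by sequencing depth.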
